A study of Mus musculus with 9 samples.

Results

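Killer lectin-like receptors are membrane proteins of natural killer (NK) cells, and 10 of their genes were followed through the bone marrow of lupus-prone mice and their parents. The genes were taken by symbol from the 31053 genes counted, and each of the 10 was found under 1 Ensembl identifier. There were 6 genes of the Ly49 family (*Klra1*, *Klra3*, *Klra4*, *Klra7*, *Klra8*, and *Klra9*) and 4 genes of other receptors (*Klrb1c*, *Klrd1*, *Klre1*, and *Klrk1*). The animals were 9 untreated female mice from The Jackson Laboratory, 9 to 10 weeks old, with 3 mice of each strain. The parents were New Zealand Black mice, called NZB, and New Zealand White mice, called NZW, and NZBWF1 is the F1 hybrid of NZW mothers and NZB fathers, whose females develop a disease like systemic lupus erythematosus. Femur bone marrow of each mouse gave 1 single-cell library, in which unique molecular identifiers (UMIs) were counted at the 3′ ends of transcripts.

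NK cells weigh signals from inhibitory and activating receptors before they kill a target cell. Ly49 receptors, the products of the *Klra* genes, bind major histocompatibility complex (MHC) class I molecules or viral look-alikes, and each NK cell carries its own assortment of them. Inhibitory members recruit the phosphatase encoded by *Ptpn6*, whereas activating members signal through the adaptor *Tyrobp*.

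All 10 genes lay on chromosome 6 of GRCm38 within 1608.4 kb, and the 6 *Klra* genes lay on the minus strand within 343.1 kb (chr6:130043731-130386874, GENCODE vM21). Sequences upstream of the transcript starts were read from RefSeq (GRCm38.p6), which held a promoter for 9 of the 10 genes. The 250 bases before the starts of *Klra4*, *Klra7*, and *Klra8* are printed first because these genes had the lowest p-values for their shares of NK cells in the strain comparison. Capitals mark TTTCCTCTTTT, the longest run shared by the promoters of *Klra3*, *Klra4*, *Klra7*, *Klra8*, and *Klra9*. Each sequence reads 5′ to 3′ toward the gene, on the minus strand.
Klra4 (chr6:130067272-130067521): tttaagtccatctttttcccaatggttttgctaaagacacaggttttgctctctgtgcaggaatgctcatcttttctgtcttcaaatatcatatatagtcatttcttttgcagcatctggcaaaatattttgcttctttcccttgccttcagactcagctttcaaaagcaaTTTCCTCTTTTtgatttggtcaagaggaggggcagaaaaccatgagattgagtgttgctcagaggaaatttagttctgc
Klra8 (chr6:130129899-130130148): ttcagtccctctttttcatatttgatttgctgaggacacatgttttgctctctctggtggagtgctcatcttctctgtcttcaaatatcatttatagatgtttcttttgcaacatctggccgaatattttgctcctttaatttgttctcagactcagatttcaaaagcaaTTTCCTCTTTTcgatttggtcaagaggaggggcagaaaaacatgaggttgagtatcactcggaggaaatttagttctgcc
Klra7 (chr6:130233323-130233572): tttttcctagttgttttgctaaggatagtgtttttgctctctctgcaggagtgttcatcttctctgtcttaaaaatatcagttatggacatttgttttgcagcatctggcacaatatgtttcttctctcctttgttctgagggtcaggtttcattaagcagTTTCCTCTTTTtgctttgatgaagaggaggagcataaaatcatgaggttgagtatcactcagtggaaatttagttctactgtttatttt

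The promoter of *Klra1* is printed beside them because *Klra1* is compared between strains in NK cells and in B cells. Its capitals mark TGTGGT, a core motif of RUNX transcription factors.
Klra1 (chr6:130386875-130387124): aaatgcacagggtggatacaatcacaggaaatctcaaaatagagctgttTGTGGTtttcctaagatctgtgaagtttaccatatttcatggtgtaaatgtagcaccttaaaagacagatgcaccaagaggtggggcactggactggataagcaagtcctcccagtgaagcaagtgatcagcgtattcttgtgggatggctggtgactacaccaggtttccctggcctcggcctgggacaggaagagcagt

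The windows of *Klra4* and *Klra8* matched in 85.1% of aligned bases, those of *Klra7* and *Klra8* in 81.4%, and those of *Klra3* and *Klra9* in 95.7%. Over all 10 pairs of these 5 promoters the identity ranged from 71.2% to 95.7%, over 181 to 249 aligned columns. The run TTTCCTCTTTT was found, on either strand, in 0.128% of 32851 mouse promoters of the same length, and in those of 8 of the 11 *Klra* genes in the table. Of these 8 genes, 5 were those whose promoters defined the run, so their matches were fixed in advance. The *Klra1* window did not hold the run. The RUNX letters TGTGGT occurred in the windows of *Klra1*, *Klrb1c*, *Klre1*, and *Klrk1*, and in 14.0% of all promoters on either strand. A T-box motif, GGTGTG, was in none of the 9 windows and in 16.3% of all promoters. A match of letters is not a binding site, and no factor binding was measured. These are sequences of the reference strain, and those of NZB and NZW were not analysed here.

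Near-identical copies limit the counting of several members. Windows of 90 bases were searched for exact copies in transcripts of other genes of the same chromosome region, and genes elsewhere were not searched. Within the last 500 bases of the transcript, windows with such a copy made up 14.1% in *Klra9*, 10.2% in *Klra7*, and 8.52% in *Klra3*. The other 7 members had 0 there. Over the whole transcript, *Klra8* shared 16.1% of its windows and *Klrb1c* 13.3%. Counts of *Klra3*, *Klra7*, and *Klra9* are therefore uncertain. Only exact copies in the reference were searched, from 1 transcript per member, so the shares do not bound miscounting in any member. For *Klra8* and *Klrb1c* no shared window lay within the last 500 bases. Their shares over the whole transcript thus do not measure the uncertainty of counts at the 3′ end. Reads of all 3 strains were counted against 1 reference genome, and whether alleles of NZB or NZW were counted as completely as each other was not tested. Which Ly49 genes NZB and NZW carry was not tested either. A level given under a symbol or receptor name is thus that of reads assigned to this gene of the reference.

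Of 68444 barcodes, 39051 (57.1%) were kept, 2455 to 5684 per mouse. NK-gated cells were those with UMIs of at least 4 of 10 NK marker genes and too few markers of any other class, and no *Klr* gene was used by a gate. There were 652 of them (205 from NZB, 193 from NZW, and 254 from NZBWF1 mice), with 39 to 95 cells and 70612 to 186250 UMIs per mouse. *Ncr1*, an activating receptor of NK cells, was found in 83.1% of NK-gated cells, *Nkg7* in 95.2%, and *Gzma* in 78.5%. The other NK markers ranged from *Gzmb* in 6.13% and *Prf1* in 32.8% to *Ccl5* in 87.6%. The T cell receptor genes *Cd3e* and *Trac* were found in 2.61% and 2.91%, *Cd3d* in 17.2%, and *Cd3g* in 26.5%. Of the other T markers, *Cd28* was found in 14.4%, *Bcl11b* and *Trat1* in 1.53% each, and *Cd5* in none. The median NK-gated cell held 0 of 8 T, 1 of 9 neutrophil, and 1 of 5 monocyte markers, while of 5 markers of group 2 innate lymphoid cells *Il1rl1*, *Il13*, and *Areg* were at 0 UMIs, Gata3 was found in 12.0%, and Rora in 9.05% of cells (11.2% and 8.40% of T-gated cells). Among NK-gated cells, 18.7% had at least 2 T markers, 33.4% at least 2 neutrophil markers, and 3.53% at least 2 monocyte markers. The gate cuts a range: 73 of the 652 cells had exactly 4 NK markers, and 182 kept cells had 3. A further 338 cells with at least 4 NK markers passed another gate and were left out, of which 154 passed the T gate only and are given below as NK+T cells. No doublet caller was run. Among all libraries 170 barcodes occurred more than once, 98.8 pairs being the number that the size of the barcode list gives, and no pair was NK-gated in both libraries. NZB mice had 2.21% ± 1.30 (SD, n = 3) NK-gated cells among those kept, NZW mice 1.35% ± 0.18, and NZBWF1 mice 1.99% ± 0.60. The shares did not pass the test between NZB and NZW (log2 fold change 0.69, SE 0.46, adjusted p = 0.269, edgeR quasi-likelihood with Benjamini-Hochberg adjustment), but did without NZB replicate 2 (1.12, adjusted p = 0.0193).

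Of the 10 members, 9 had their highest mean level in NK-gated cells. Levels are given as CPM, the UMIs of a gene per 1000000 UMIs of a class in a mouse, and are compared within a gene, since 3′ counts carry no correction between genes. *Klra4* had 81.0% of its 958 UMIs in NK-gated cells, *Klra7* 78.7% of 578, and *Klra1* 63.4% of 1408. *Klrd1* had 35.3% of 3636 UMIs there. *Klra3*, the exception, had 17 UMIs in all kept cells and stood at 4.98 ± 5.25 CPM (SD, n = 9) in NK-gated and at 9.18 ± 15.1 in NK+T cells. The mean level of *Klrd1* over the 9 mice was 1071 ± 145 (SD, n = 9) in NK-gated cells, 680 ± 151 in NK+T cells, 265 ± 47.7 in plasmacytoid dendritic (pDC)-gated cells, and 251 ± 75.4 in T-gated cells. The last pair did not differ beyond their spread. *Klrk1* followed the order NK, NK+T, and T, with 1004 ± 127, 453 ± 86.1, and 132 ± 86.1. *Klre1* was at 875 ± 167, 383 ± 135, and 50.3 ± 44.9 in the same order, and *Klrb1c* was at 582 ± 149, 275 ± 113, and 51.4 ± 33.3. In neutrophil-gated cells, which should lack the receptors, every member had a mean at or below 1.23 CPM, with single mice up to 2.74 for *Klrd1*. The share of cells with a *Klrd1* UMI, each cell thinned to 1000 UMIs, was 61.9% in NK-gated cells and 0.102% in neutrophil-gated cells (78.4% and 0.265% without thinning, median depth 1404 and 2316.5 UMIs).

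**Figure D1:**
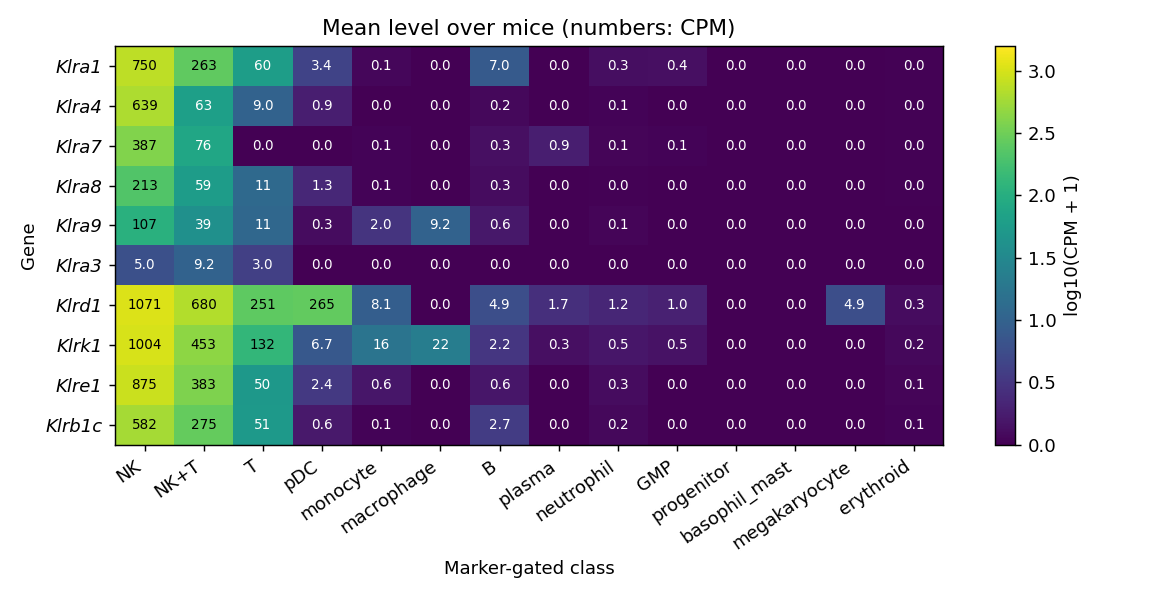
Mean level of the 10 receptor genes (rows) in marker-gated cell classes (columns), in CPM averaged over the mice with at least 10 cells of the class; colour gives log10(CPM + 1). The NK column is highest for 9 of the genes, the exception being Klra3, and for Klrd1 the pDC column stands at 265.

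NK-gated cells were compared with T-gated cells of the same mice, 393 cells with at least 3 of 8 T markers. *Klrd1* and *Klrk1* were the members high enough to be tested within T-gated cells alone, and both were higher in NK-gated cells, where 11.3% of 1529 genes tested were called higher and 25.8% were called in either direction. Their log2 fold changes were 2.02 for *Klrd1* (SE 0.12, adjusted p = 8.37e-16, and 1.34 with the cells kept that passed a further gate) and 2.82 for *Klrk1* (SE 0.21, adjusted p = 5.50e-09), by edgeR quasi-likelihood with the mouse as a block. *Klra1*, *Klra4*, *Klra7*, *Klra8*, *Klrb1c*, and *Klre1* passed the filter on low counts through their level in NK-gated cells, which fixes the direction, so their values are a description. The log2 fold changes were 3.41 for *Klrb1c*, 4.05 for *Klre1*, 3.61 for *Klra1*, 3.91 for *Klra8*, and 6.04 for *Klra4*. *Klra7* had 455 UMIs in NK-gated cells and 0 in T-gated cells, and was at least 77.6-fold higher in NK-gated cells with a floor of 3 counts over all T-gated cells. *Klra3* and *Klra9* were too low to be tested. By construction the T gate admits no cell with 4 or more NK markers.

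The strains were first compared for the inhibitory Ly49 genes in NK-gated cells. *Klra1* encodes Ly49A, an inhibitory receptor of MHC class I. It stood at 826, 1020, and 1009 CPM in the 3 NZB mice, at 511, 795, and 660 in NZW, and at 679, 623, and 628 in NZBWF1. All NZB mice lay above all mice of both other strains. The fitted log2 fold change of NZB against NZW was 0.54 (SE 0.17, adjusted p = 0.109), and that of NZBWF1 against NZB was -0.60 (SE 0.17, adjusted p = 0.112), both by edgeR quasi-likelihood with Benjamini-Hochberg adjustment. *Klra7*, the inhibitory receptor Ly49G, showed the same order. Its levels were 505, 552, and 454 in NZB, 282, 378, and 338 in NZW, and 361, 349, and 261 in NZBWF1. Again no NZB mouse overlapped with the other strains, with 0.59 (SE 0.21, adjusted p = 0.195) for NZB against NZW and -0.66 (SE 0.21, adjusted p = 0.238) for NZBWF1 against NZB. The NZBWF1 mice overlapped with the NZW mice in both genes. *Klra9*, the inhibitory receptor Ly49I, ranged from 69.6 to 150 over the 9 mice, and the strains overlapped (0.16 for NZB against NZW, adjusted p = 0.955). *Klra3*, the inhibitory receptor Ly49C, had 5 UMIs over all NK-gated cells (3 from NZB, 1 from NZW, and 1 from NZBWF1) and did not pass the filter.

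For both activating Ly49 genes the values of all NZB mice lay above those of all NZW mice, short of the threshold. *Klra4*, the receptor Ly49D, stood at 742, 779, and 746 CPM in NZB, at 617, 457, and 421 in NZW, and at 757, 585, and 645 in NZBWF1. The NZB mice lay above the NZW mice (0.60, SE 0.19, adjusted p = 0.0885), and the NZBWF1 mice overlapped with both. *Klra8*, the receptor Ly49H, which binds a protein of mouse cytomegalovirus, stood at 275, 212, and 281 in NZB, at 132, 169, and 157 in NZW, and at 304, 177, and 206 in NZBWF1. All mice of NZB and of NZBWF1 lay above all NZW mice. The log2 fold changes were 0.78 for NZB against NZW (SE 0.27, adjusted p = 0.149) and 0.53 for NZBWF1 against NZW (SE 0.26, adjusted p = 0.573). In the 151 NK-gated cells with at least 2000 UMIs and 1000 genes, *Klra8* turned to -0.30 for NZB against NZW (adjusted p = 0.970), and *Klra8* and *Klra4* turned to -0.47 and -0.30 for NZBWF1 against NZW (adjusted p = 0.935 for both). Without NZBWF1 replicate 1, *Klra8* was at 0.31 for NZBWF1 against NZW (adjusted p = 0.783). NZBWF1 against NZB gave -0.26 for *Klra8* and -0.23 for *Klra4*, each with an adjusted p above 0.9. These comparisons share mice, and the different place of the hybrid in *Klra1* and *Klra7* on the one hand and *Klra4* and *Klra8* on the other was not tested.

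**Figure D2:**
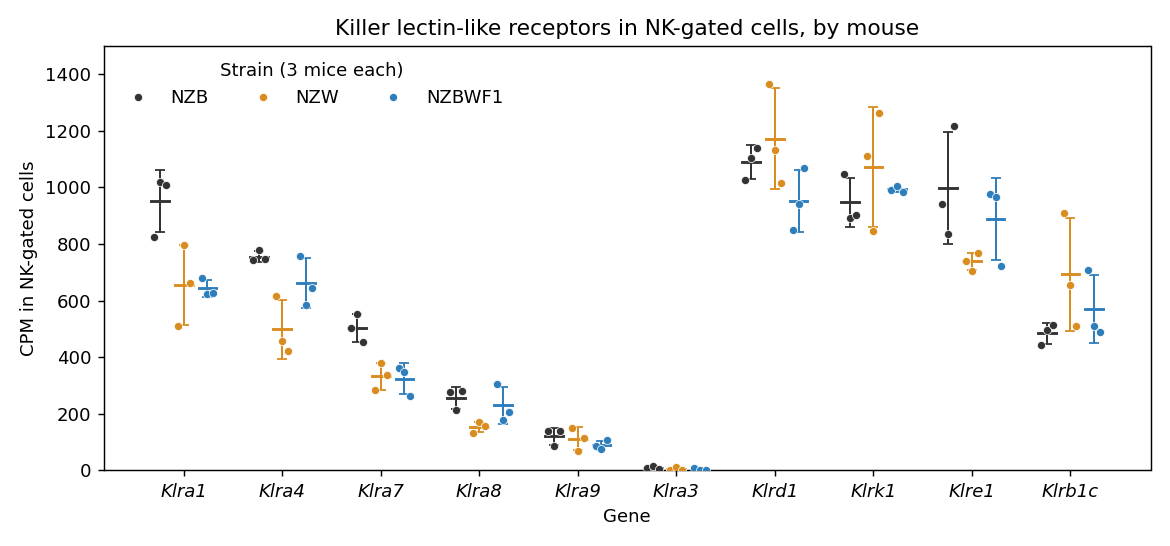
Level of each receptor gene in NK-gated cells in CPM, with 1 point per mouse and bars for the mean ± SD of the 3 mice of a strain. NZB mice lie above NZW mice without overlap in Klra1, Klra4, Klra7, Klra8, and Klre1, and NZBWF1 mice lie with NZW in Klra1 and Klra7.

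Of the receptors outside the Ly49 family, *Klre1* had its higher mean in NZB and *Klrb1c* in NZW, each short of the threshold. *Klre1*, which forms heterodimers with the products of *Klri1* or *Klri2*, stood at 940, 836, and 1218 in NZB, at 741, 706, and 767 in NZW, and at 976, 966, and 723 in NZBWF1. The NZB and NZW mice did not overlap (0.46, SE 0.17, adjusted p = 0.202). *Klrb1c*, the NK1.1 antigen, stood at 443, 496, and 513 in NZB, at 908, 656, and 512 in NZW, and at 707, 510, and 489 in NZBWF1. The parents overlapped by 1 mouse (-0.51, SE 0.20, adjusted p = 0.257). Without NZW replicate 1 the change of *Klrb1c* was -0.26 (adjusted p = 0.847), and without NZB replicate 3 that of *Klre1* was 0.27 (adjusted p = 0.764). *Klrd1* encodes CD94, which pairs with the products of the *Klrc* genes and binds the MHC molecule *H2-T23*. It stood at 1024, 1105, and 1140 in NZB, at 1367, 1133, and 1015 in NZW, and at 849, 940, and 1067 in NZBWF1, and the strains overlapped. *Klrk1*, the activating receptor NKG2D for stress-induced ligands, stood at 1047, 892, and 902 in NZB, at 1111, 845, and 1263 in NZW, and at 990, 1004, and 984 in NZBWF1. Between NZB and NZW the change was -0.10 for *Klrd1* and -0.18 for *Klrk1*, with adjusted p above 0.79.

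No member passed the test in any of the 4 strain comparisons in NK-gated cells, in fits without a block for the replicate number. With that block 2 members, *Klra1* and *Klra4*, passed for NZB against NZW (smallest adjusted p = 0.0339, edgeR quasi-likelihood, 83 of 2510 genes called). For NZBWF1 against NZB 1 member, *Klra1*, passed with it (adjusted p = 0.0348, same test, 19 genes called). The values that follow are without the block. For NZB against NZW 0 of the 9 members tested were called, beside 2.15% of 2510 genes, and 6 had an unadjusted p under 0.05 (273 of the 2510 genes), 5 higher and 1 lower in NZB. For NZBWF1 against NZB 0 were called (0.598% of genes) and 2 had such a p (159 genes), both lower in NZBWF1. For NZBWF1 against NZW 0 were called (0.598%) and 3 had such a p (218 genes), *Klra4* at 0.37, *Klra8* at 0.53, and *Klrd1* at -0.33. Against the mean of the parents 0 were called (0.279%) and 3 had such a p (156 genes), *Klra1* at -0.33, *Klra7* at -0.37 (-0.24 without NZBWF1 replicate 3), and *Klrd1* at -0.28. Without NZW replicate 1, *Klra4* was at 0.56 and *Klrd1* at -0.20 for NZBWF1 against NZW. DESeq2 called 0 members in each comparison and gave 6, 2, 0, and 0 members with an unadjusted p under 0.05, in the same order. The median log2 fold change of the members was 0.46 for NZB against NZW, -0.23 for NZBWF1 against NZB, and, for the hybrid, -0.076 against NZW and -0.070 against the mean of the parents, beside 0.015, -0.010, 0.0055, and 0.0064 over all genes tested. Over the 6 tested *Klr* genes outside the 10 members, the medians were -0.46, 0.27, -0.41, and -0.053 in the same order. For NZB against NZW 2 of these 6 genes were positive, beside 6 of the 9 members. Of the 10 members, 5 had all NZB mice above all NZW mice, as did 7.85% of the 2510 genes, and none had the reverse, as did 8.05% (15.9% of genes in either direction). *Klra1* and *Klra7* had all NZBWF1 mice below all NZB mice (5.34% of genes), none lay above (6.53%), *Klra8* had all NZBWF1 mice above all NZW mice (8.01%), and none lay below (5.74%). The edgeR p-values rest on the spread between the 3 mice of each strain, drawn toward that of all genes tested. Leaving out 1 NZB mouse, replicate 1, brought *Klra1* below 0.05 for NZB against NZW (0.62, adjusted p = 0.0476) and for NZBWF1 against NZB (-0.68, adjusted p = 0.0483), and leaving out NZW replicate 1 did so for *Klra4* for NZB against NZW (0.79, adjusted p = 0.0297).

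**Figure D3:**
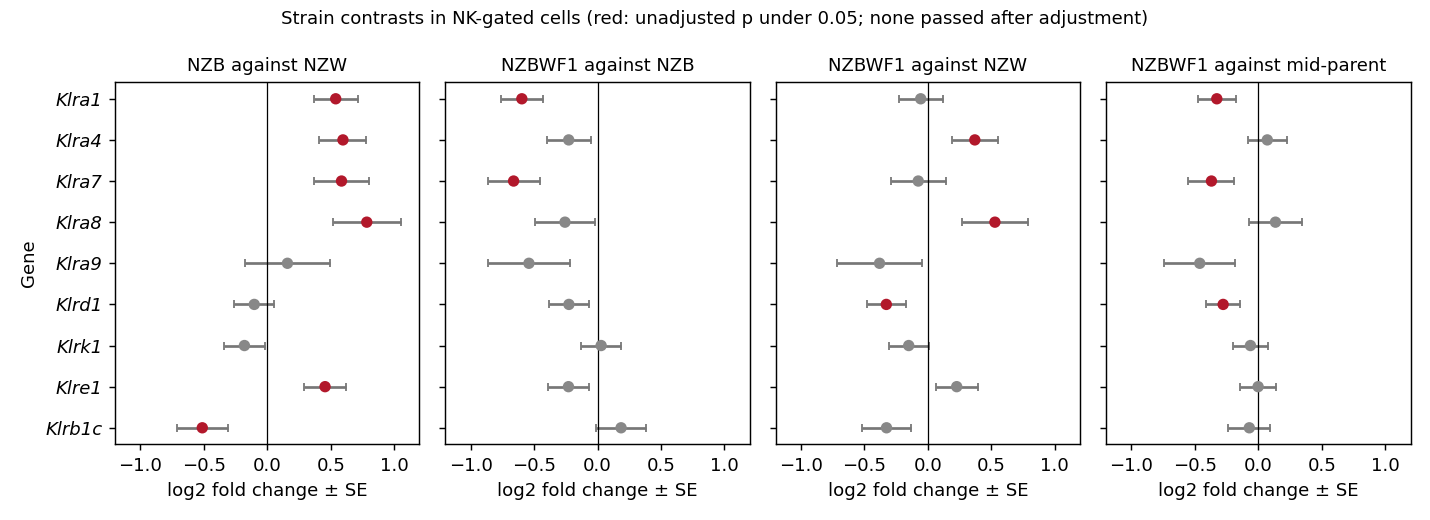
Log2 fold change of each tested receptor gene in NK-gated cells in the 4 strain comparisons, with bars of 1 standard error; red marks an unadjusted p under 0.05. Against NZW, NZB was higher in 5 red genes and lower in Klrb1c. No gene passed after adjustment in these fits, which had no block for the replicate number.

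The shares of NK-gated cells with a UMI were compared in cells thinned to 1000 UMIs. *Klra4* was found in 46.8% ± 3.97 of cells from NZB mice, 32.0% ± 4.75 from NZW, and 45.2% ± 3.64 from NZBWF1 (SD, n = 3; exact permutation test, p = 0.0214). *Klra8* was found in 22.3% ± 5.23, 10.9% ± 3.38, and 20.7% ± 2.67 (exact permutation p = 0.0321), and *Klra7* in 36.5% ± 6.81, 24.5% ± 5.84, and 26.7% ± 0.92 (exact permutation p = 0.0429). The adjusted p over the 10 members was 0.143 for each of these 3 genes, and the smallest p that the 280 partitions of the mice allow is 0.00357. The share of *Klra1* was 46.7%, 41.0%, and 42.4% (exact permutation p = 0.168). The other members had an exact permutation p of at least 0.0786. For comparison, the share of neutrophil-gated cells with a UMI was at most 0.0215% for any *Klra* gene.

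NK-gated cells differed in how many Ly49 genes they held. After thinning, a cell held UMIs of 1.63 ± 0.12 of the 6 *Klra* genes in NZB, 1.17 ± 0.05 in NZW, and 1.49 ± 0.08 in NZBWF1 (SD, n = 3). By construction this mean is the sum of the shares of the 6 genes, so it restates them and is no separate result. The numbers of *Klra* genes per cell were not tested between strains. Cells with 2 or more made up 53.8%, 56.4%, and 46.5% in NZB mice, compared with 31.3%, 33.9%, and 29.7% in NZW mice, while NZBWF1 mice had 44.9%, 44.4%, and 47.4%. All NZW mice lay below all others. Without thinning these cells were 64.0% ± 1.11 in NZB, 44.6% ± 6.09 in NZW, and 57.9% ± 3.94 in NZBWF1. Cells with no *Klra* UMI were 18.7% ± 7.36, 27.3% ± 4.77, and 26.6% ± 5.53, and the strains overlapped. A UMI of any of the 10 members was missing in 2.88%, 0.498%, and 3.00% of cells of NZB, NZW, and NZBWF1.

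**Figure D4:**
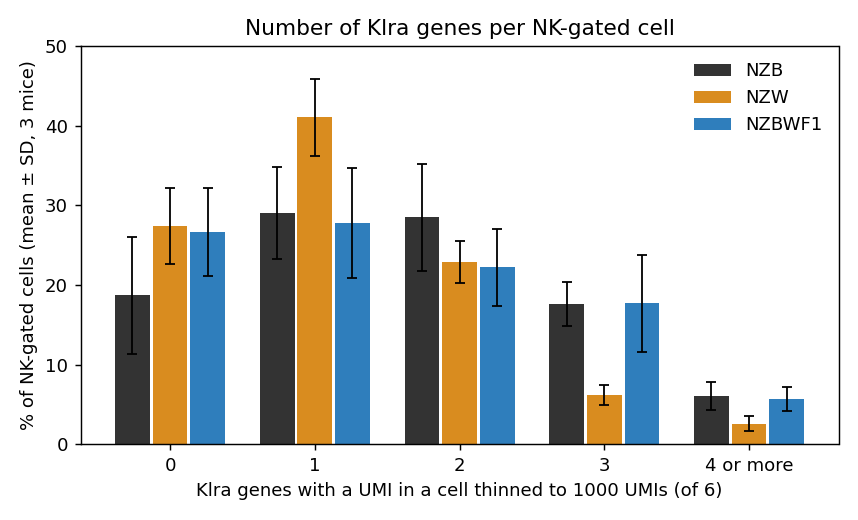
Share of NK-gated cells (in %, mean ± SD of 3 mice) by the number of the 6 Klra genes with a UMI, each cell thinned to 1000 UMIs. Cells with 3 Klra genes were 6.18% in NZW, 17.7% in NZB, and 17.7% in NZBWF1, and cells with 1 were most common in NZW at 41.0%.

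Pairs of Ly49 genes were then counted within cells against the number that the shares of each mouse give. *Klra8* and *Klra9* were found together in 30 cells, where 12.9 were expected, a ratio of 2.32. *Klra7* and *Klra9* were found together in 13 cells, where 20.1 were expected, a ratio of 0.65. The other 8 pairs without *Klra3* had ratios of 1.15 to 1.5. The pairs are given without a test, since cells of a mouse are not replicates.

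In T-gated cells 2 members, *Klrd1* and *Klrk1*, were high enough to be tested between strains. *Klrd1* stood at 400, 193, and 199 CPM in NZB, at 256, 320, and 243 in NZW, and at 150, 281, and 213 in NZBWF1. *Klrk1* stood at 296, 27.5, and 163 in NZB, at 177, 68.5, and 81.1 in NZW, and at 50.1, 123, and 203 in NZBWF1, from 1 to 22 UMIs per mouse. The strains overlapped in both genes. In the comparisons of NZB with NZW, NZBWF1 with NZB, NZBWF1 with NZW, and NZBWF1 with the mean of the parents, 0 of 2 were called by edgeR quasi-likelihood, beside 2.57%, 0.559%, 0.67%, and 0.559% of 895 genes. Neither edgeR nor DESeq2 gave a member an unadjusted p under 0.05. *Klre1* had 17 UMIs in T-gated cells of NZB, 2 in NZW, and 11 in NZBWF1, too few for the test. *Klra1* had 33 UMIs, *Klrb1c* 31, *Klra8* 8, *Klra9* 6, *Klra4* 5, and *Klra3* 2.

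The T-gated cells with *Klrk1* seldom had UMIs of *Cd8a*, a coreceptor gene of cytotoxic T cells. Of 48 T-gated cells with a *Klrk1* UMI, 6.25% had a UMI of *Cd8a* and 4.17% of *Cd8b1*, against 29.3% and 42.9% of the 345 cells without one. *Ccl5* was found in 52.1% against 17.7% and *Il2rb*, the receptor chain for interleukins of NK and memory T cells, in 60.4% against 31.9%. *Ncr1*, a marker of NK cells, was found in 4 of the 48 cells and in 0 of the 345. The median depth was 1326.5 against 1309 UMIs, and the part of NK cells in these shares was not tested. Of the 106 T-gated cells with *Klrd1*, 24.5% had *Cd8a*, against 27.2% of the 287 without, and 49.1% had *Il2rb*, against 30.3%. These are shares over cells of 9 mice, and are given as a description.

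*Klrd1* was also a gene of pDC-gated cells. The 1899 pDC-gated cells held 897 of its UMIs, 24.7% of the total. It stood at 243, 231, and 297 CPM in NZB, at 286, 224, and 193 in NZW, and at 344, 310, and 258 in NZBWF1, in every mouse above 190. After thinning, 22.5% of pDC-gated cells had a *Klrd1* UMI, at a median depth of 1705 UMIs, and 0.102% of neutrophil-gated cells. The pDC marker *Siglech* was found in 95.2% of the cells with *Klrd1* and in 94.2% of those without, and *Ccr9* in 79.1% and 76.8%. *Ncr1* was found in 0 of the 684 cells with *Klrd1*, *Nkg7* in 1, and *Gzma* in 2. Every other member had a mean over all mice at or below 6.7 CPM. Single mice reached more, up to 22.9 for *Klrk1* in NZW. Between strains *Klrd1* was not called (smallest adjusted p = 0.441, edgeR quasi-likelihood, NZBWF1 against NZW, 0.36, SE 0.16, and 0.23 without NZW replicate 3), where 1.57% of 6067 genes were called. The share called was 6.71% for NZB against NZW, 2.51% for NZBWF1 against NZB, and 0.412% against the mean of the parents. An unadjusted p under 0.05 came up in 2 of the 4 comparisons by edgeR and in 0 by DESeq2.

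In B-gated cells the values of *Klra1* had the other order between the parents, short of the threshold. There were 153 *Klra1* UMIs in 131 of 7844 B-gated cells, 10.9% of all its UMIs. The level was 4.45, 1.93, and 1.61 CPM in NZB, from 2, 1, and 1 UMIs, 11.3, 11.6, and 8.54 in NZW, and 10.6, 6.79, and 5.96 in NZBWF1. All NZB mice lay below all others, whereas in NK-gated cells they lay above, and the difference between the classes was not tested. The log2 fold change of NZB against NZW was -1.99 (SE 0.59, adjusted p = 0.0637), and that of NZBWF1 against NZB was 1.44 (SE 0.63, adjusted p = 0.390), by edgeR quasi-likelihood. With no filter on low counts, or without NZBWF1 replicate 1, the first passed the threshold (adjusted p = 0.0393 and 0.0482). In barcodes under 100 UMIs, a measure of free RNA, *Klra1* stood at 8.06 to 31.7 in NZB, 3.03 to 14.6 in NZW, and 16.9 to 22 in NZBWF1. After thinning, 0.509% of B-gated cells and 0.0215% of neutrophil-gated cells had a *Klra1* UMI, at median depths of 1688 and 2316.5.

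The B-gated cells with *Klra1* more often held *Mki67* and genes of the surrogate light chain. *Mki67*, a gene of dividing cells, was found in 74.8% of them and in 43.6% of the other B-gated cells. The surrogate light chain genes *Vpreb1* and *Igll1*, which mark pre-B cells, were found in 54.2% and 52.7% against 27.3% and 26.2%. Rag1, a recombinase gene of precursor B cells, was found in 12.2% against 13.5%. *Ms4a1*, which encodes CD20 of more mature B cells, was found in 7.63% against 32.3%. The median depth was 3564 against 1671 UMIs, and the part of depth in the higher shares was not tested. Of the 131 cells, 2 had *Ncr1*, 3 *Nkg7*, 1 *Ccl5*, and none *Gzma* or *Klrd1*. Among B-gated cells with a *Mki67* UMI, *Klra1* stood at 10.4, 2.70, and 0 CPM in NZB (3 UMIs), at 15.5, 16.2, and 9.24 in NZW (75 UMIs), and at 16.6, 5.42, and 5.26 in NZBWF1 (40 UMIs), and the strains overlapped. Among those without one it stood at 0 to 4.26 (1 UMI), 1.15 to 7.35 (15 UMIs), and 2.50 to 10.1 (19 UMIs) in the same order.

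*Klrd1*, with 62 UMIs in B-gated cells, was called higher in NZB than in NZW (2.77, SE 0.70, adjusted p = 0.0241, edgeR quasi-likelihood), 1 of 2 members tested beside 3.34% of 9873 genes in either direction and 1.91% higher in NZB. The levels were 8.90, 15.4, and 3.22 CPM in NZB, from 4, 8, and 2 UMIs, and 2.25, 0.704, and 0.777 in NZW, from 7, 2, and 2 UMIs. The call was lost without NZB replicate 1, NZB replicate 2, NZW replicate 2, or NZW replicate 3 (adjusted p = 0.0779, 0.281, 0.0817, and 0.0854). In barcodes under 100 UMIs *Klrd1* stood at 22.6 to 34.9 in NZB and at 18.8 to 27.3 in NZW, above its level in B-gated cells, and the part of free RNA was not tested. In the other 3 comparisons neither member was called, beside 0.982% of genes for NZBWF1 against NZB, 0.638% against NZW, and 0.273% against the mean of the parents.

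*Klrk1* was found in monocyte-gated cells, with 152 UMIs in 3946 cells. It stood at 14.1, 1.59, and 14.4 CPM in NZB, at 9.39, 28, and 31.8 in NZW, and at 15.7, 14.7, and 14.4 in NZBWF1. NZB was called lower than NZW (-1.52, SE 0.52, adjusted p = 0.0494, edgeR quasi-likelihood), 1 of 2 members tested in a class where 20.6% of 8227 genes were called and 9.68% were lower in NZB. The mice overlapped, DESeq2 did not call it (adjusted p = 0.0807), nor did edgeR on library totals without TMM (adjusted p = 0.0553), and leaving out NZB replicate 2 brought it to -0.76 (adjusted p = 0.241). The call was also lost without NZW replicate 2 or 3 and without any 1 of the NZBWF1 mice. In barcodes under 100 UMIs *Klrk1* stood at 8.06 to 20.6 CPM over the 9 mice, which overlaps with its level in monocyte-gated cells, and the part of free RNA was not tested. After thinning, 1.51% of monocyte-gated cells and 0.0431% of neutrophil-gated cells had a *Klrk1* UMI, at median depths of 2000.5 and 2316.5. In cells with UMIs of at least 2 of 3 MHC class II genes *Klrk1* stood at 87.4, 109, and 165 CPM in NZW (29 UMIs) and at 127, 51.4, and 58.7 in NZBWF1 (15 UMIs), against 16.6 ± 7.98 and 9.62 ± 2.91 in the other monocyte-gated cells (SD, n = 3). In NZB the cells with class II genes stood at 0, 0, and 130, with 5 UMIs in 1 mouse, against 8.16 ± 6.46 in the others. Of the 132 monocyte-gated cells with a *Klrk1* UMI, 7.58% had Clec9a, a gene of conventional dendritic cells, against 0.629% of the others, and 61.4% had F13a1, a gene of monocytes, against 87.5%, at median depths of 2229.5 and 1994 UMIs. The part of dendritic cells in the *Klrk1* values was not tested. Cells with class II genes numbered 37 beside 873 others in NZB, 111 beside 1530 in NZW, and 102 beside 1293 in NZBWF1. No member was called in the comparisons with NZBWF1, beside 14.5% of genes against NZB, 0.827% against NZW, and 1.47% against the mean of the parents.

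**Figure D5:**
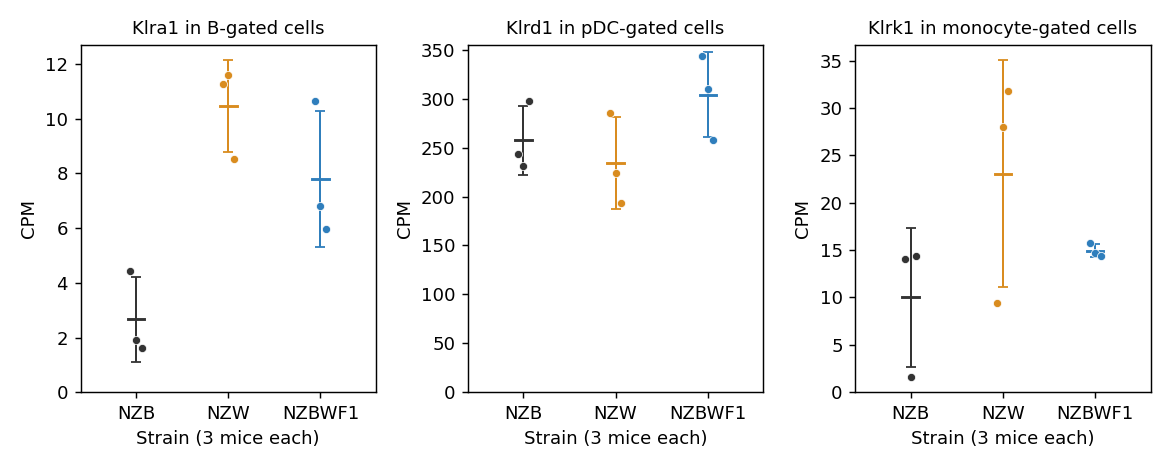
Levels in CPM of Klra1 in B-gated, Klrd1 in pDC-gated, and Klrk1 in monocyte-gated cells, with 1 point per mouse and bars for the mean ± SD of 3 mice; each panel has its own axis from 0. NZB mice lie below 5 and NZW mice above 8 for Klra1, while the strains overlap for Klrd1 and Klrk1.

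Genes around the receptors were read from lists in the same NK-gated fits. Of 19 further *Klr* genes, 16 were found by symbol, 6 passed the filter and 0 were called. The nearest were *Klrb1f* (140 ± 27.5 in NZB and 266 ± 49.7 in NZW, -0.90, adjusted p = 0.0578) and *Klrc1*, the inhibitory partner of *Klrd1* (34.1 ± 35.9 and 113 ± 31.0, -1.38, adjusted p = 0.123, edgeR quasi-likelihood). *Klrc2*, its activating partner, stood at 305 ± 47.9 and 294 ± 73.1, and at 205 ± 6.75 in NZBWF1 (-0.62 against NZB, adjusted p = 0.427, and -0.53 against NZW, adjusted p = 0.533, edgeR quasi-likelihood). *Klrb1a* stood at 127 ± 24.7 in NZB and 150 ± 51.9 in NZW, *Klrb1b*, an inhibitory receptor, at 76.2 ± 19.4 and 135 ± 33.2, and *Klri2*, a partner of *Klre1*, at 193 ± 99.6 and 195 ± 23.6. *Klra5*, a further Ly49 gene that did not pass the filter, stood at 53.9 ± 11.6 in NZB, 8.63 ± 8.82 in NZW, and 11.1 ± 19.3 in NZBWF1. Of 15 genes of adaptors and signalling, 12 were tested and 0 were called in any comparison. The adaptor of the activating Ly49 receptors, *Tyrobp*, stood at 1898 ± 192 in NZB, 2402 ± 176 in NZW, and 2014 ± 281 in NZBWF1, and *Hcst*, the adaptor of *Klrk1*, at 168 ± 23, 267 ± 39.7, and 285 ± 8.96.

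Of 14 genes of ligands, 9 were tested, and 2 were higher and 1 was lower in NZB than in NZW, beside the 2.15% of all genes called. *H2-T23*, the ligand of *Klrd1* with its *Klrc* partners, stood at 75.0 ± 41.3 in NZB, 223 ± 51.6 in NZW, and 146 ± 26.1 in NZBWF1 (NZB against NZW -1.40, SE 0.32, adjusted p = 0.00497, edgeR quasi-likelihood). *H2-Q7*, an MHC class Ib gene, stood at 355 ± 62.2, 46.8 ± 24.7, and 137 ± 17.8 (2.84, SE 0.33, adjusted p = 2.53e-09), and *H2-Q6* at 103 ± 22.2, 17.3 ± 13.7, and 47.2 ± 18.4 (2.41, SE 0.65, adjusted p = 0.0284). Of the 9, 1 was called for NZBWF1 against NZB and 1 for NZBWF1 against NZW (0.598% of genes in each), *H2-Q7* at -1.36 (SE 0.24, adjusted p = 0.000389) and 1.48 (SE 0.37, adjusted p = 0.0323), and 0 against the mean of the parents. *H2-Q6* and *H2-Q7* are near-identical copies, so their counts are uncertain. Whether NZB and NZW alleles of *H2-T23* and the other ligand genes were counted alike against the reference genome was not tested. The class Ia genes *H2-K1* and *H2-D1*, which Ly49 receptors bind, were not called (-0.35 and 0.15, adjusted p = 0.195 and 0.770). Of 23 NK regulators and effectors, 15 were tested and 1 was called between the parents, the granzyme gene *Gzma* (3040 ± 755 in NZB and 4539 ± 550 in NZW, -0.56, adjusted p = 0.0373). *Runx3* stood at 257 ± 37.2 in NZB, 167 ± 45.9 in NZW, and 262 ± 28.3 in NZBWF1 (NZB against NZW 0.66, adjusted p = 0.276, edgeR quasi-likelihood). Of the 10 genes that the NK gate used, 9 were tested, with changes between NZB and NZW from -0.59 for *Ccl5* to 0.11 for Prf1, and *Gzma* was the 1 called. Their part in the receptor values was not tested.

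Genes whose levels followed the members across classes were sought over 105 sums of a class and a mouse, in 14 classes and 9951 genes. All *Klr* genes were left out of the ranking. The 5 most alike to the summed level of the members were *Ctsw* (r = 0.906), *Traf1* (r = 0.904), *Ccl5* (r = 0.900), *Il2rb* (r = 0.898), and *Samd3* (r = 0.897). *Ccl5* and *Il2rb* were used by the NK gate. The sums of a mouse share a library, and the correlation is a description.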

How the data were processed

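The authors generated the values with Cell Ranger 3.1.0 (bcl2fastq 2.20 and mm10 per the labels) by counting reads per gene and barcode and aggregating the 9 libraries. The deposited filtered matrix holds UMI counts, whole and not normalized per cell. The sources used here do not say whether aggregation equalized depth. Barcode suffixes were taken to count the libraries in the order of the deposited aggregation list, and columns without a mapped mouse numbered 0. The unfiltered matrix served only for free RNA.

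Barcodes were discarded below 1000 UMIs, below 500 genes, or above 10% mitochondrial UMIs. Cells were classed by counts of marker genes, and cells passing more than 1 gate were left out. UMIs were summed per class and mouse, leaving out mice with fewer than 10 cells, and tested with edgeR 4.0.16 in R 4.3.3 (filterByExpr, TMM, robust quasi-likelihood) with Benjamini-Hochberg adjustment over all genes tested and a threshold of 0.05. The mid-parent contrast had the coefficients of the study's methods. DESeq2 1.42.0 was an alternative. Shares were compared in thinned cells by exact permutation of the mice, with a function written for this with numpy 2.4.6. Procedures were tested on simulated counts. All 10 members are named, and further *Klr* genes where they reached 50 CPM in a strain. Genes of the other lists are named where called; *Tyrobp*, *Hcst*, *H2-K1*, *H2-D1*, *Runx3*, *Ccl5*, and Prf1 were added after their values were seen. Members and lists were chosen with earlier results of these data known, and the fits in B-, pDC-, and monocyte-gated cells were added after UMIs were seen there. Floors cover counting error only.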

Additional observations from a re-analysis of the deposited data

Results flagged for a closer look

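*Klra1* had changes of opposite sign in NK-gated and B-gated cells. None passed the threshold in the fits with all mice, the filter on low counts, and no block for the replicate number. Some passed with that block, without that filter, or with 1 mouse left out, as given above. In NK-gated cells the log2 fold change was 0.54 for NZB against NZW, with every NZB mouse above every NZW mouse, and -0.60 for NZBWF1 against NZB. In B-gated cells it was -1.99 for NZB against NZW, with every NZB mouse below every NZW mouse, and 1.44 for NZBWF1 against NZB. The difference between the 2 classes was not tested. The NZB values in B-gated cells rest on 4 UMIs in 757 cells.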

How the results depend on the processing

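Of 788 values and counts of calls recomputed under other settings, 744 were alike, which means the same direction and side of the threshold for a value and within 1.5 times for a count. The 788 include NK against T values of members whose direction the filter fixed. They also include counts that stayed at 0 and changes that stayed short of the threshold. The 744 therefore do not measure how firm the results are. Not among the 788 are 22 changes in NK-gated cells with an unadjusted p of at least 0.05, of which 13 changed sign in a setting with gates. *Klrd1* and *Klrk1* were called higher in NK-gated than in T-gated cells under each alternative, leaving out each mouse included. For members in NK-gated cells, the replicate number as a block gave 2 calls for NZB against NZW (*Klra1*, 0.55, adjusted p = 0.0365, and *Klra4*, 0.60, adjusted p = 0.0339) and 1 call for NZBWF1 against NZB (*Klra1*, -0.60, adjusted p = 0.0348). The labels give the mice numbers only, and the study mentions batches without assigning mice to them. Over 2510 genes, the deviations of same-numbered mice correlated above 0.1 in 6 of 9 pairs. These were the pairs of replicates 1 and 2 (r from 0.127 to 0.182), while those of replicate 3 had r from -0.0206 to 0.0493. The numbers were not taken as pairs, and whether same-numbered mice share a batch was not tested. Without any gate, 1 member was called for NZB against NZW (*Klrd1*, 0.93, adjusted p = 0.0081). That fit sums all kept cells, so the shares of the classes enter its values. The pDC-gated cells held 415 of 1257 *Klrd1* UMIs in NZB and 126 of 933 in NZW. They numbered 270, 441, and 276 in the NZB mice and 82, 103, and 95 in the NZW mice. Their part in the call was not tested. Leaving out each mouse in turn gave 0 to 1 calls for NZB against NZW and 0 to 1 for NZBWF1 against NZB. A stricter gate gave 1 called share, that of *Klra4*, with 17.2 percentage points more in NZB than in NZW (exact permutation, adjusted p = 0.0357). That gate raised both the NK and the T cut by 1 marker, so cells with exactly 3 T markers could enter its NK class. Its NK class held 627 cells, whereas 579 of the 652 NK-gated cells had at least 5 NK markers. The looser gate lowered both cuts and held 558 NK-gated cells.

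With at least 2000 UMIs and 1000 genes per cell, which left 151 NK-gated cells, *Klra8* reversed to -0.30 for NZB against NZW, and *Klra4* and *Klra8* reversed to -0.30 and -0.47 for NZBWF1 against NZW. Without any gate, *Klrb1c* reversed to 0.087 for NZB against NZW and *Klrd1* to 0.69 for NZBWF1 against NZW, and against the mean of the parents *Klra1* reversed to 0.18, *Klra7* to 0.19, and *Klrd1* to 0.22. All 9 members tested without a gate were positive for NZB against NZW, with a median of 0.97 and a highest value of 1.44. In the deeper cells *Klra4* was at 0.36, *Klra7* at 0.9999, and *Klre1* at 0.68 for NZB against NZW, and *Klra1* at -0.90 for NZBWF1 against NZB and -0.68 against the mean of the parents. With at most 5% mitochondrial UMIs *Klrb1c* was at -0.82 and *Klre1* at 0.26 for NZB against NZW, *Klra8* at 0.81 for NZBWF1 against NZW, and *Klra1* at -0.125 against the mean of the parents. The cause of these changes was not tested. The share of NK-gated cells for NZB against NZW passed the threshold with at most 5% mitochondrial UMIs (1.22, adjusted p = 0.0153), and ranged from 0.30 to 1.12 when each mouse was left out, passing without NZB replicate 2 (adjusted p = 0.0193). For NZBWF1 against NZB it reversed to 0.12 with the deeper cells and to 0.038 with the stricter gate, and ranged from -0.57 to 0.24 over the mice left out. Against the mean of the parents it ranged from -0.056 to 0.40. T-gated cells with at least 2000 UMIs were too few to compare strains. B-gated *Klra1* in NZB rests on 4 UMIs.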
